A study of Mus musculus with 2 samples.

Results

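The cells described here met a gene rule for dendritic cells with Ccr7, a chemokine receptor of migrating dendritic cells, inside a sort for mouse medullary thymic epithelial cells (mTECs). A barcode was kept as a cell if it had at least 500 detected genes, at least 1000 UMIs (counted transcript molecules) and at most 15% mitochondrial UMIs. A kept cell met the rule for a Ccr7 dendritic cell if it had at least 1 UMI of Ptprc, which encodes the leukocyte antigen CD45, and at least 3 of 6 genes detected: Ccr7, Flt3, Fcer1g, Tyrobp, Cytip and Samsn1. It also had to carry Epcam, an epithelial adhesion gene, at under 4 UMIs per 10000, and the tuft cell genes Trpm5, Dclk1 and Alox5ap together at under 10 per 10000. Of 13307 kept cells, 306 met the rule. They are called Ccr7 dendritic cells after it, although Ccr7 itself was found in 152 of 162 of them in one library and 126 of 144 in the other, and 2 small subgroups described later, of 29 and 9 cells, were led by T-lineage and B-lineage genes, against the name. The cells were thus selected on measured levels of these genes, so the presence of these genes and the low level of Epcam and tuft genes in the cells is a description and not a result.

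Dendritic cells take up proteins, cut them into peptides and show the peptides to T cells on MHC molecules. On maturation they induce Ccr7, which leads them towards the chemokines Ccl19 and Ccl21, together with costimulatory molecules, NF-kB components and the actin bundler Fscn1. In the thymic medulla they are known to acquire antigens and surface proteins from mTECs, which make tissue-restricted proteins under Aire and Fezf2, and to present them to developing T cells.

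Single-cell RNA was sequenced from mouse thymus cells sorted as EPCAM-positive and Ly51-negative, with a droplet kit that reads the 3' ends of transcripts. There is 1 library from a Foxn1-Cre(+) Ikaros+/fl thymus and 1 from a Foxn1-Cre(+) Ikarosfl/fl thymus, a contrast between control and conditional deletion of Ikaros (gene symbol Ikzf1). Both carry the Foxn1-Cre transgene, whose promoter is active in thymic epithelium, and at least 1 floxed Ikaros allele; the +/fl library keeps 1 allele that is not floxed. The age, sex and number of the mice and the exons removed are not stated in the labels, and the sort was for epithelium, so any CD45-bearing cell in it came through a gate set for another cell type.

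In the submitters' file naming, the library labelled +/fl is the knockout and the library labelled fl/fl the control, against the genotype labels. The libraries are therefore called +/fl-labelled and fl/fl-labelled throughout, and each direction holds only for these labels. They also differ in the sex of the animals. Among Ccr7 dendritic cells, Xist, an RNA made from the inactive X, was at 962 CPM (UMIs per 1000000) in the +/fl-labelled library and at 0 UMIs in the other, and the Y-linked Ddx3y was at 0 UMIs and at 99.1 CPM. Genotype, sex and library cannot be told apart. With 1 library per genotype no test was possible. Intervals are exact at 95%, Poisson for CPM, Clopper-Pearson for shares and conditional binomial for ratios, and cover counting error only. All ratios are log2 of the fl/fl-labelled library over the +/fl-labelled library with 1 CPM added to both, so a positive value is a higher level in the fl/fl-labelled library.

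In the +/fl-labelled library 162 of 5099 cells met the rule, 3.18% (2.71 to 3.70%), and in the fl/fl-labelled library 144 of 8208 did, 1.75% (1.48 to 2.06%). These shares also depend on how many other cells passed the sort and on the rule. Their median depth was 11139.5 UMIs in the first and 9151 in the second library, with 2677 and 2499.5 genes detected and a mitochondrial share of 3.84% and 4.08%. The libraries share 25 barcodes, and 0 of them are among the 306 cells. The cells serve beside 2 other populations of the same libraries. T-lineage cells (65 and 80) had Ptprc, at least 3 of 6 T cell genes, fewer than 3 genes of the dendritic rule and the same Epcam and tuft limits. Epithelial cells (3355 and 5966) had 0 UMIs of Ptprc and at least 4 UMIs of Epcam per 10000. Of the epithelial cells 481 and 1355 had at least 5 UMIs of Aire and are called Aire-high.

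By the rule all 306 cells had at least 3 of its 6 genes, and most had more. In the +/fl-labelled library 17, 24, 64 and 57 cells had 3, 4, 5 and all 6 of the genes, and in the fl/fl-labelled library 31, 35, 42 and 36 did. Cells at the edge of the rule differed in what they carried. The 48 cells with exactly 3 genes had Ccl22, a chemokine of mature dendritic cells, at 792 CPM and the T cell receptor gene Trbc2 at 550 CPM, while 77 cells that failed only by having 2 genes had them at 11.9 and 2529 CPM. On the other edge, 55 cells with Epcam from 2 to under 4 per 10000 had Ccl22 at 825 CPM and the epithelial keratin Krt8 at 727 CPM. The 88 cells from 4 to under 8 that met every other limit still had Ccl22 at 430 CPM, with Krt8 at 1054 CPM. The Epcam limit thus cuts through cells that carry both kinds of transcript.

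Beyond the genes of the rule, the cells carried other genes of dendritic cells. Cst3, a cystatin abundant in dendritic cells, was at 6073 CPM (5970 to 6177) and 4559 CPM (4452 to 4668) in the cells of the 2 libraries, against 203 and 159 CPM in T-lineage cells and 482 and 773 CPM in epithelial cells. Batf3 and Spi1, transcription factors of dendritic and myeloid cells, stood at 294 and 247 CPM and at 158 and 137 CPM. Spi1 was at 0 UMIs in the T-lineage cells of both libraries. The 15 genes that stood highest over all other kept cells were Itga4, Gpr183, Il12b, Myo1g, Tyrobp, Ly86, Cd83, Plxnc1, Rgs1, Selplg, Ccr7, Apol7c, Samsn1, Cytip and Epsti1. They are leukocyte adhesion and guidance genes, rule genes and genes of mature dendritic cells, and Itga4, an integrin chain, stood at 195 CPM in the cells and 6.11 CPM elsewhere.

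Some defining markers of resting conventional dendritic cells were scarce. Xcr1 and Clec9a, receptors that define type 1 dendritic cells, were at 3.68 and 0.66 CPM and at 2.30 and 3.96 CPM, and the type 2 markers Cd209a and Itgam at 0.46 and 0.92 CPM in the +/fl-labelled library and at 0 UMIs in the other. Itgax, which encodes the dendritic integrin CD11c, was found in 5.56% and 3.47% of the cells. Irf8, a transcription factor of type 1 and plasmacytoid dendritic cells, was by contrast at 493 and 373 CPM in 74.7% and 70.1% of them. The whole list of 15 type 1 genes summed to 1009 and 849 CPM, with at least 2 of them in 88.9% and 79.2% of the cells, against sums of 846 and 622 CPM in T-lineage and 657 and 626 CPM in epithelial cells. The 14 type 2 genes summed to 495 and 622 CPM, against 246 and 693 CPM in T-lineage and 412 and 527 CPM in epithelial cells.

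A minority carried markers of other cell types. At least 2 of the 6 T cell genes were found in 18 and 29 cells. C1qa, a complement gene of macrophages, was found in 6.79% and 5.56% of the cells. The 14 monocyte and granulocyte genes summed to 315 and 4056 CPM, with at least 2 of them in 11.7% and 25.7% of the cells, and Csf3r, Ace and Mmp8 were at 0 UMIs in both libraries. S100a8, a calprotectin chain, was at 15.2 and 1456 CPM in 6.17% and 19.4% of the cells, with 89.4% of the latter UMIs in 1 cell. Epithelial cells had S100a8 at 120 and 345 CPM.

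Clustering of the 306 cells alone gave 5 subgroups, which describe how the cells vary and are given by number. All 30 genes of the maturation list were detected in subgroups 1 to 4 and 29 in subgroup 5, where Ccl17 was at 0 UMIs. They summed to 22074, 17221, 10327, 5163 and 6060 CPM in subgroups 1 to 5, against 1107 CPM in T-lineage and 2712 CPM in epithelial cells. Subgroup 1 (102 cells) was led by Il12b, a subunit of interleukin 12 and interleukin 23, at 476 CPM against 41.6 CPM in the other cells, by the T cell attractant Ccl5 at 15496 against 2670 CPM, and by Epsti1 and Zmynd15. It also had the highest levels of Irf8 (835 CPM), Cst3 (11277 CPM), the endocytic receptor gene Ly75 (154 CPM) and the apoptotic cell bridging gene Mfge8 (300 CPM). Subgroup 2 (89 cells) had Il12b at 15.7 CPM, and carried more Gpr183, an oxysterol receptor (585 CPM against 45.8 in subgroup 1), Fcer1g (658 against 152), H2-Aa, an MHC class II chain (7510 against 2423), Ciita, the class II transactivator (142 against 13.5), and the transcription factor Tcf4 (219 against 65.5). Subgroup 2 also held 7 cells with C1qa and 1 cell that alone carried all its UMIs of the granule genes Ngp, Camp and Ltf.

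Subgroup 3 (77 cells) stood apart by mTEC transcripts. Its leading genes were Klk1b16, Mt4, Iapp, S100g, Fabp6, Lypd2, Sct and Fabp9, many of them carried by few cells. The top cell of each gene held 99.7% of the UMIs of Klk1b16, 79.7% of S100g, 72.9% of Sct and 69.2% of Mt4. For Iapp, Fabp6, Lypd2 and Fabp9 it held 64.7%, 62.2%, 47.9% and 32.8%. The median mitochondrial share of subgroup 3 was 8.07% against 3.01% and 3.52% in subgroups 1 and 2, and its median depth was 13865 UMIs. Subgroup 3 held 13 of the 15 cells of the rule that fell among the highest doublet scores of their library (a score for droplets with 2 cells). Ccr7 was at 798 CPM in it, against 1869 and 1176 CPM in subgroups 1 and 2. Subgroup 4 (29 cells) was T-lineage-like, led by Trbc1 at 1499 CPM, Rag1, Gzmb, Gzma, Cd3g, Themis, Nkg7 and Ctsw. Trbc1 was found in 21 and Cd3g in 28 of its cells, but Rag1, Gzmb and Gzma in 3 cells each. Subgroup 5 (9 cells) was B-lineage-like, led by Ighg2b, found in 5 of its cells, and by Iglc2, Ms4a1, Cd79a, Mzb1 and Igkc, each found in all 9. Between libraries, subgroups 1, 2 and 3 made up 36.4%, 29.6% and 26.5% of the cells in the +/fl-labelled library and 29.9%, 28.5% and 23.6% in the fl/fl-labelled library. Subgroup 4 held 10 and 19 cells, 6.17% and 13.2%, and subgroup 5 held 2 and 7 cells.

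**Figure D1:**
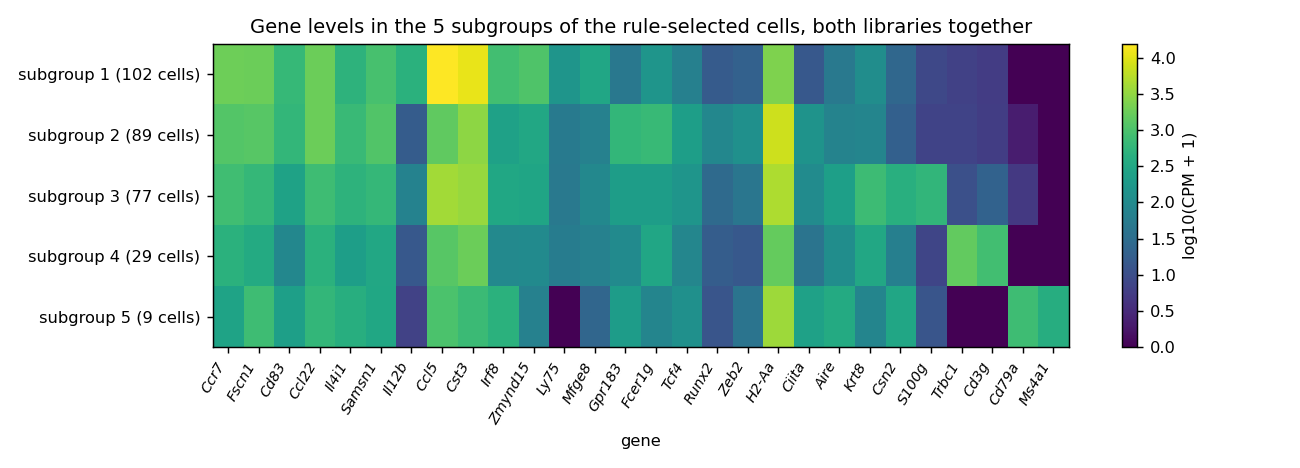
Level of selected genes (columns) in the 5 subgroups of the Ccr7 dendritic cells (rows, with their number of cells), as log10 of CPM plus 1 summed over both libraries. Ccr7 and Fscn1 are present in every row, Il12b and Ccl5 are brightest in subgroup 1, H2-Aa and Gpr183 in subgroup 2, Krt8 and S100g in subgroup 3, Trbc1 in subgroup 4 and Cd79a in subgroup 5.

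Of the 30 genes of the maturation list, 24 were lower in the fl/fl-labelled library by more than counting error, 1 was higher by more than it and 5 were within it. In promoters of this list the 10-base kappaB consensus was looked for on both strands, since maturation is known to run through NF-kB. RefSeq's GRCm38.p6 table held promoters for 22 of the 30 genes in 26 windows of 250 bases before a transcript start. The consensus was present in 1 of the 26 windows (3.85%), that of Ebi3, against 2382 of all 32851 windows (7.25%). In the NF-kB list it was present in 9 of 19 windows (47.4%). Another form had been searched first, with more positions open to any base but A required where the consensus allows A or G. It was present in 8 of the 26 windows (30.8%) and in 5793 of all windows (17.6%). The list's share thus stood above that of all windows with this other form and below it with the consensus. These are letter matches only, and forms on opposite strands can overlap. The windows of the cytokine subunit Ebi3, which holds the match, and of the chemokine Ccl22, one of the most abundant genes of the list, are shown 5′ to 3′ up to the base before the start, with the match in capitals.
Ebi3: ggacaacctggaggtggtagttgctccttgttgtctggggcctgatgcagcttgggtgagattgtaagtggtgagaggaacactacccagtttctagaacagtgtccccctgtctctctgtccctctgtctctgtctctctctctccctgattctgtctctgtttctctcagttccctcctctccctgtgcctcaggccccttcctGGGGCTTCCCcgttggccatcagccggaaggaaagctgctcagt
Ccl22: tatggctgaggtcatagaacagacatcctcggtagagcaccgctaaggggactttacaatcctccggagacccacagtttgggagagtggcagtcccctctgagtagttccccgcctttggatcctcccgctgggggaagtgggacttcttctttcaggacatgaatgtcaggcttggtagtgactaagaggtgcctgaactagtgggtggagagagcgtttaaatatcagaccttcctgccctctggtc
They lie at chr17:55952373-55952622 (plus strand, match from base -44) and chr8:94745434-94745683 (plus strand, no match).

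Ccr7 itself was at 1293 CPM (1246 to 1342) in the +/fl-labelled library and 957 CPM (908 to 1007) in the fl/fl-labelled library, a log2 ratio of -0.43 (-0.53 to -0.34). It was found in 93.8% and 87.5% of the cells, and in 80.7% and 69.4% once every cell had been thinned to 2000 UMIs (1 and 0 shallower cells left out). Thinned T-lineage cells had it in 19.7% and 36.6% and thinned epithelial cells in 1.50% and 4.65%. T-lineage cells had Ccr7 at 106 and 456 CPM and epithelial cells at 14.5 and 39.8 CPM. As a rule gene, which also bounds the T-lineage cells, it is given as a description only.

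Fscn1, the actin bundler of dendritic protrusions, was at 1271 CPM (1224 to 1319) and 827 CPM (782 to 874), a log2 ratio of -0.62 (-0.72 to -0.52). Ccl22, which attracts cells with Ccr4, was at 1392 CPM (1343 to 1442) and 1096 CPM (1044 to 1150), a ratio of -0.34 (-0.43 to -0.26). Il4i1, which degrades aromatic amino acids, was at 605 and 412 CPM (-0.55, -0.69 to -0.41), and Ebi3, a subunit of interleukin 27 and 35, at 134 and 76.0 CPM (-0.81, -1.14 to -0.50). All 4 were lower in the fl/fl-labelled library by more than counting error. Within subgroups, Fscn1 was lower in each of subgroups 1, 2 and 3 (1964 and 1382, 1398 and 1013, 677 and 525 CPM). Ccl22 was lower in subgroups 1 and 2 (1983 and 1437, 2005 and 1367 CPM) and higher in subgroup 3 (508 and 1099 CPM).

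The largest differences in the list were those of Apol7c and Il12b. Apol7c, an apolipoprotein L gene induced on dendritic cell activation, was at 731 CPM (696 to 768) and 208 CPM (186 to 232), a log2 ratio of -1.81 (-1.99 to -1.64). It was found in 54.3% and 33.3% of the cells, and 36.6% and 20.8% after thinning, so that both the share of cells and the level were lower in the fl/fl-labelled library. It was lower in subgroup 1 (1184 and 441 CPM), subgroup 2 (980 and 90.9 CPM) and subgroup 3 (314 and 202 CPM). Il12b was at 234 CPM (214 to 255) and 85.2 CPM (71.2 to 101), a ratio of -1.44 (-1.74 to -1.17). A single cell held 27.4% and 13.2% of these UMIs, and within subgroup 1, where most of them lie, the levels were 589 and 262 CPM.

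**Figure D2:**
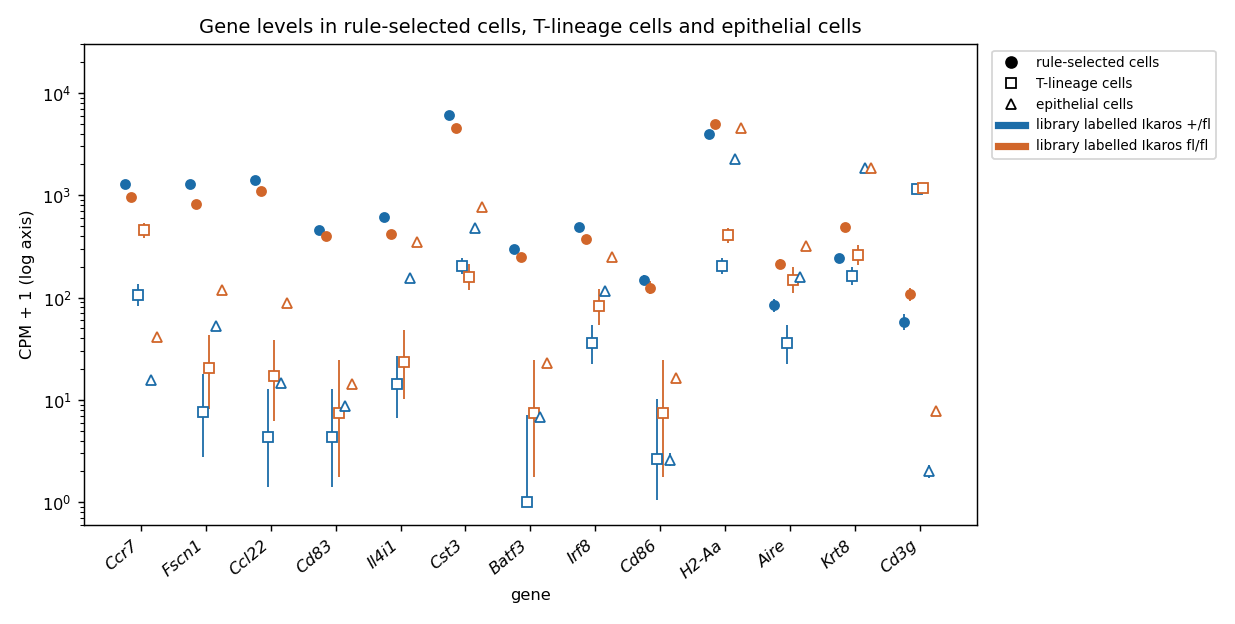
Levels (CPM plus 1, log axis) of 13 genes in Ccr7 dendritic cells (filled circles), T-lineage cells (squares) and epithelial cells (triangles) of the +/fl-labelled library (blue) and the fl/fl-labelled library (orange). Bars are exact 95% counting intervals, smaller than the symbol where not seen; Ccr7, Fscn1, Ccl22 and Cst3 stand highest in the dendritic cells, and Krt8 in the epithelial cells of both libraries.

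Over the whole list the median log2 ratio was -0.34, where the median over all 11859 genes with at least 10 UMIs in the cells was 0.09 and 58.5% of those genes had a positive ratio. Apol7c and Il12b were 2-fold or more lower in the fl/fl-labelled library, 2 of 30 genes, and 0 of 30 were 2-fold or more higher. Of all genes measured 3.48% were 2-fold or more lower and 9.9% 2-fold or more higher, and of the 6710 genes with at least 50 UMIs 1.12% and 4.84%. Ccr7, Cytip and Samsn1 belong to both the list and the rule. By subgroup the list's medians were -0.25, -0.42 and -0.22 in subgroups 1, 2 and 3, with 20, 27 and 23 of the 30 genes lower, beside 0.07, 0.09 and 0.04 over all genes measured there. The gene that was higher was Ccl17, a second ligand of Ccr4, at 223 and 346 CPM with a ratio of 0.63 (0.45 to 0.82), while Cytip, an adhesion regulator, was equal at 457 CPM in both.

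In epithelial cells of the same libraries the ratio of this list had the opposite sign, with a median of 0.66 and 27 of 30 genes higher in the fl/fl-labelled library. Over all 11859 genes measured 5557 were higher in the epithelial cells. Ebi3 was at 7.34 and 43.6 CPM there, a ratio of 2.42, and Fscn1 at 51.6 and 117 CPM, a ratio of 1.16. Aire-high cells had Il4i1 at 357 and 596 CPM and Ccl22 at 12.1 and 97.2 CPM. The difference between dendritic and epithelial cells was not tested, since each has 1 library per genotype.

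**Figure D3:**
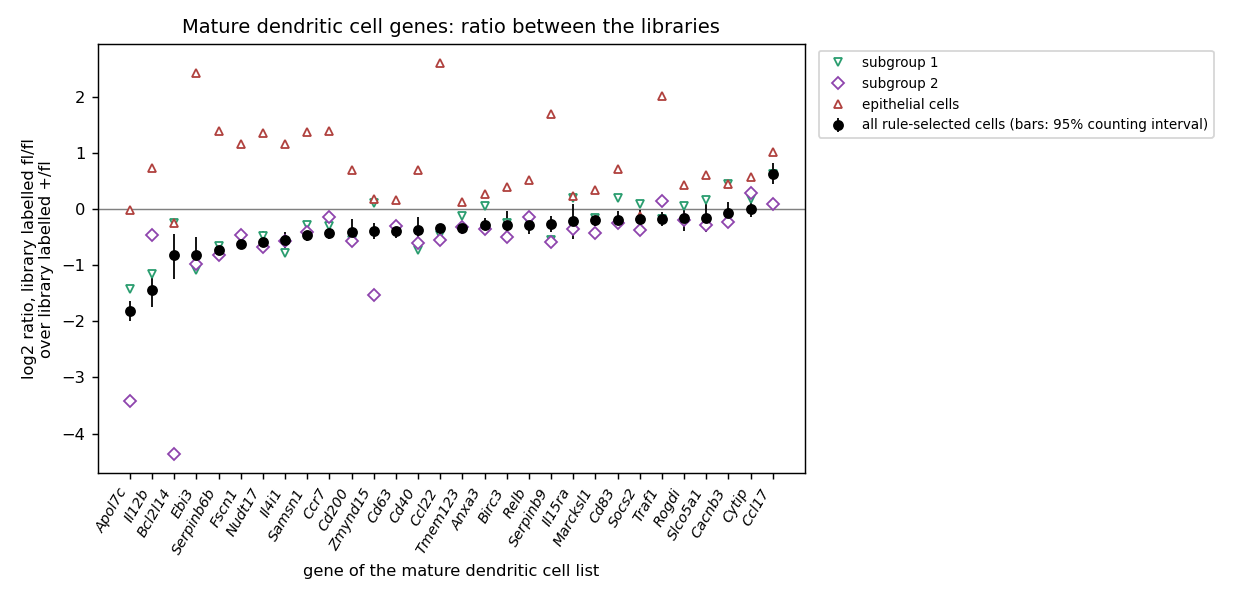
Log2 ratio (fl/fl-labelled library over +/fl-labelled library) of each of the 30 mature dendritic cell genes in all Ccr7 dendritic cells (black, bars are 95% counting intervals), in subgroups 1 and 2 and in epithelial cells. The black points lie below 0 for all genes but Ccl17 and Cytip, the latter at 0.00, and most epithelial points lie above 0.

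Of 8 genes of dendritic identity 7 had a negative ratio, 4 of them beyond counting error, with a median of -0.27 and 0 past 2-fold. Over all 11859 genes measured 4924 had a negative ratio, 706 of them beyond counting error. Flt3, with a ratio of -0.58, belongs to both this list and the rule. Cst3 had a ratio of -0.41 (-0.46 to -0.37), Irf8 of -0.40 (-0.55 to -0.25) and Id2, an inhibitor of helix-loop-helix factors needed by dendritic cells, of -0.29 (904 and 741 CPM). The Cst3 difference was not shared by the subgroups: its level was 10910 and 11971 CPM in subgroup 1 and 3892 and 1606 CPM in subgroup 2. Zbtb46, a factor of conventional dendritic cells, was at 40.5 and 36.3 CPM (-0.15, -0.67 to 0.35), within counting error. Of 21 transcription regulators on the list 13 were lower and 8 higher, with a median of -0.03, where 4924 of all 11859 genes measured were lower. Stat5a, a signal transducer of cytokine receptors, was the 1 past 2-fold, at 34.5 and 71.4 CPM (1.03, 0.61 to 1.49).

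Ikzf1, the gene of the floxed allele, was at 65.7 CPM (55.4 to 77.4) and 57.5 CPM (46.1 to 70.9) in the Ccr7 dendritic cells, a ratio of -0.19 (-0.59 to 0.20). Their levels differed by less than counting error. T-lineage cells had it at 223 and 204 CPM and epithelial cells at 64.4 and 36.2 CPM. The kit reads 3' ends, and if the removed exons lie elsewhere in the gene these values do not check the genotype. Its relative Ikzf2 was at 21.6 and 57.5 CPM (1.37, 0.88 to 1.96). T-lineage cells carried Ikzf2 at 213 and 521 CPM, and in subgroups 1 and 2 alone its ratio was -0.29.

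All 11 measured genes of the MHC class II pathway were higher in the fl/fl-labelled library, with a median ratio of 0.44. Of all genes measured 58.5% were higher and 9.9% 2-fold or more higher. H2-Aa was at 3979 CPM (3895 to 4064) and 4951 CPM (4839 to 5064), a ratio of 0.32 (0.27 to 0.36), and Cd74, the invariant chain, at 8933 and 10383 CPM (0.22). The only 2 genes past 2-fold were H2-Oa and H2-Ob, the chains of a modulator of peptide loading, at 108 and 222 CPM (1.03) and 11.03 and 39.6 CPM (1.76). The B-lineage-like subgroup, with 2 and 7 cells, carried H2-Ob at 156 CPM. The class II difference was uneven over subgroups: the list's median was 0.96 in subgroup 1 (10 of 10 genes higher), 0.02 in subgroup 2 (6 of 11) and 0.62 in subgroup 3 (9 of 11). H2-Ab1 was at 661 and 1372 CPM in subgroup 1 and at 5136 and 5206 CPM in subgroup 2. Aire-high cells, which also present on class II, had H2-Aa at 3945 and 6127 CPM, in the same direction.

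Class I genes did not follow. Of 12 genes 10 were lower in the fl/fl-labelled library, with a median of -0.08, where 4924 of all 11859 genes measured were lower. The largest differences were in the proteasome activator genes Psme1 (1136 and 890 CPM, -0.35) and Psme2 (955 and 741 CPM, -0.37), while the heavy chain H2-D1 stood at 3384 and 2999 CPM (-0.17). None of the 12 was 2-fold different.

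Costimulatory and inhibitory ligands were mixed, 5 of 13 higher and 8 lower, with a median of -0.19. Over all 11859 genes measured 6935 were higher and 4924 lower. Cd86, a ligand of Cd28, was at 149 and 124 CPM (-0.26, -0.53 to 0.00), and Cd80, its relative, at 79.5 and 89.9 CPM (0.17, -0.16 to 0.51), both within counting error. Cd40, the receptor for T cell help, was lower at 225 and 174 CPM (-0.36, -0.59 to -0.15), and in subgroup 3 it was higher, at 132 and 217 CPM. The inhibitory ligand Cd274 was at 146 and 153 CPM (0.07, -0.18 to 0.32), and Pdcd1lg2, a second ligand of the same receptor, at 8.27 and 26.4 CPM (1.56, 0.84 to 2.57). Among NF-kB genes, where Relb and Traf1 also belong to the maturation list, 13 of 18 were lower (4924 of 11859 over all genes measured). Their median was -0.14, with 0 past 2-fold.

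Of 11 chemokines measured 6 were higher in the fl/fl-labelled library, 5 of them 2-fold or more (9.9% of all genes), and 5 were lower, with a median of 0.63. That median was 0.20 in subgroups 1 and 2 alone. Ccl5 was at 6554 and 6530 CPM over all the cells, a ratio of -0.01, yet at 14077 and 18177 CPM in subgroup 1 and 1811 and 891 CPM in subgroup 2. Cxcl10, an interferon-induced ligand of Cxcr3, was at 337 CPM (313 to 363) and 790 CPM (746 to 836), a ratio of 1.23, and lay mainly in subgroup 3 (547 and 1704 CPM). Epithelial cells of both libraries carried Cxcl10 at 1507 and 1274 CPM. Among cytokines, Il6, an inflammatory interleukin, was at 21.6 and 53.5 CPM (1.27, 0.77 to 1.86) and was higher in subgroups 1, 2 and 3 alike (23.3 and 67.4, 23.5 and 69.0, 25.6 and 51.5 CPM). Il15, which sustains memory and innate lymphocytes, was at 127 and 100 CPM (-0.33, -0.63 to -0.05).

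Interferon-stimulated genes were higher in the fl/fl-labelled library for 17 of 18 genes, 8 of them 2-fold or more, with a median of 0.76. Of all genes measured 58.5% were higher and 9.9% 2-fold or more higher. Ifit1 and Ifit3, antiviral RNA-binding proteins, were at 31.3 and 93.2 CPM (1.55) and at 10.1 and 66.1 CPM (2.59), in 11.1% and 25.7% and in 6.79% and 9.72% of the cells. Isg15, a ubiquitin-like modifier, was at 110 and 159 CPM (0.53, 0.26 to 0.79). In subgroup 3 Ifit1 was at 37.0 and 192 CPM, Isg15 at 96.7 and 234 CPM and Rsad2, an antiviral enzyme, at 19.9 and 147 CPM. In subgroup 1 Isg15 was nearly equal (136 and 135 CPM) and Ifit1 slightly lower (35.7 and 31.1 CPM). With subgroups 1 and 2 alone the ratios of Isg15, Ifit1 and Rsad2 turned, to -0.073, -0.26 and -0.25. Counted over subgroups, 8 of 12, 8 of 13 and 13 of 18 genes were higher in subgroups 1, 2 and 3. Over all genes measured there 3879 of 6906, 3648 of 6477 and 4974 of 9578 were higher. The epithelial median of the list was -0.20.

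Genes of the actin skeleton and migration were lower for 16 of 19, where 4924 of all 11859 genes measured were lower. Their median was -0.19, with 0 past 2-fold. Tmsb4x, which binds actin monomers, was at 37137 and 28957 CPM (-0.36), and Lsp1, a leukocyte actin-binding protein, at 1410 and 984 CPM (-0.52). Coro1a and Rac2, actin regulators of leukocytes, went the other way, at 182 and 289 CPM (0.66) and 116 and 233 CPM (0.998). T-lineage cells, of which subgroup 4 has the markers, carried Coro1a at 925 and 761 CPM and Rac2 at 434 and 405 CPM.

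Uptake receptors were mostly at low levels. Mfge8 was the best measured and was lower in the fl/fl-labelled library, at 190 CPM (172 to 209) and 76.0 CPM (62.7 to 91.2), a ratio of -1.31 (-1.63 to -1.02), with 401 and 109 CPM in subgroup 1 and 64.5 and 75.3 CPM in subgroup 2. Ly75 was at 92.9 and 59.5 CPM (-0.63). Macrophage markers were higher for 11 of 11 genes, 8 of them 2-fold or more, against 58.5% and 9.9% of all genes measured. Apoe, a lipid carrier, was at 47.3 and 519 CPM and C1qa at 32.2 and 149 CPM. The ratio of Apoe was 3.43, and 0.64 among cells with a Ccr7 UMI, where the direction of C1qa turned, with a ratio of -1.69. Their part in the other differences was not tested. B-lineage markers were higher for 9 of 9 genes measured, and T-lineage markers for 11 of 15, where 58.5% of all genes measured were higher.

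**Figure D4:**
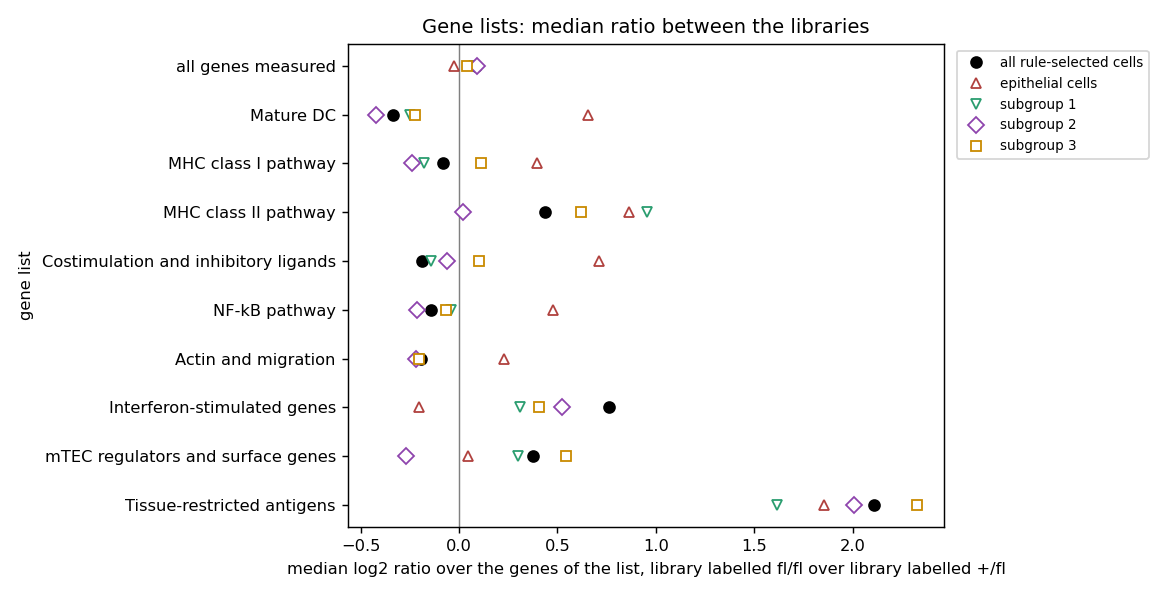
Median log2 ratio (fl/fl-labelled library over +/fl-labelled library) over the genes of 9 lists and over all genes measured (rows), in all Ccr7 dendritic cells (black), epithelial cells and subgroups 1 to 3. Mature dendritic, actin and NF-kB genes lie below 0 in the dendritic cells and above 0 in epithelium, class II genes lie at or above 0 in every population, and tissue-restricted antigens lie farthest above 0.

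Transcripts made by mTECs were present in the Ccr7 dendritic cells at a part of their epithelial level that depended on the subgroup. Over genes of the mTEC lists (Aire-stage regulators, keratins, chemokines, tissue-restricted antigens and tuft genes) with at least 50 CPM in epithelium, the level in dendritic cells was a median of 12.5% of that in epithelial cells in the +/fl-labelled library (42 genes) and 23.1% in the fl/fl-labelled library (55 genes). The T-lineage cells, which are not known to make these transcripts, had 7.86% and 9.28%. Subgroups 1 and 2 had 4.64% and 3.94% in the +/fl-labelled library and 4.16% and 4.23% in the fl/fl-labelled library, under the level of T-lineage cells. Subgroup 3, with most of the high doublet scores, had 27.4% and 43.5%. Sums over genes, which the most abundant genes set, also stood above the T-lineage cells elsewhere. Tuft transcripts summed to 7.69% and 7.35% of the epithelial level in subgroups 1 and 2 of the +/fl-labelled library, against 5.05% in T-lineage cells. In the fl/fl-labelled library they summed to 21.8% and 18.4%, against 11.1%. The medians over tuft genes in these subgroups were 5.58% and 4.495% in the +/fl-labelled library, against 4.69% in T-lineage cells. In the fl/fl-labelled library these medians were 4.43% and 4.71%, below the 10.04% of T-lineage cells. There the highest tuft gene stood at 128% of its epithelial level in subgroup 1 and in subgroup 2, against 23.9% in T-lineage cells. Antigens summed to 15.9% in subgroup 2 of the fl/fl-labelled library, against 6.87%, with 75.1% of that subgroup's antigen UMIs in 1 cell. That cell had 0 UMIs of the mTEC regulators, of the mTEC chemokines and of Ccr7. Whether its antigen UMIs came from mTECs was not tested. The median over antigens in subgroup 2 of that library was 3.31%, against 6.10% in T-lineage cells. The part of doublets, of free RNA and of any other source in these levels was not tested.

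Per cell, the sum over all mTEC lists had a median of 12.2 UMIs per 10000 in the +/fl-labelled library (lowest 2.17, highest 432) and 14.0 in the fl/fl-labelled library (lowest 2.01, highest 411). T-lineage cells had medians of 13.1 and 15.4, and epithelial cells of 215 and 181. Within subgroup 3 the medians were 33.0 and 63.8, against 10.1 and 11.3 in subgroup 1 and 10.4 and 12.2 in subgroup 2. Few cells carried most of the antigen transcripts: 5 cells held 67.8% of the UMIs of the tissue-restricted antigens in the +/fl-labelled library and 51.4% in the fl/fl-labelled library.

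**Figure D5:**
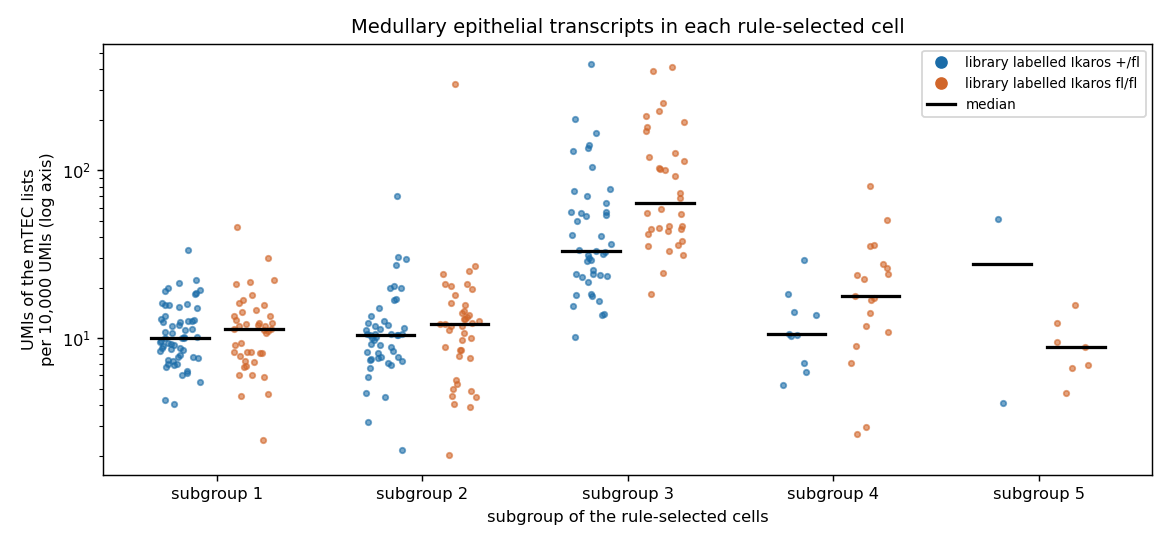
UMIs of all mTEC lists per 10000 UMIs (log axis) in each Ccr7 dendritic cell, by subgroup and library; each point is 1 cell and each line a median. Subgroups 1 and 2 centre near 10 to 12 in both libraries, and subgroup 3 centres at 33.0 in the +/fl-labelled library and 63.8 in the fl/fl-labelled library.

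The antigens in the dendritic cells followed the library in the direction of its epithelium. Of 31 tissue-restricted antigens measured 27 were higher in the fl/fl-labelled library and 21 were 2-fold or more higher, against 58.5% and 9.9% of all genes measured. Their median was 2.11, where the epithelial median was 1.85. Csn2, a milk casein, was at 83.2 CPM (71.5 to 96.2) and 322 CPM (294 to 352) in the dendritic cells and at 425 and 814 CPM in epithelium. Reg3g, a gut antimicrobial lectin, was at 178 and 406 CPM, with a single cell holding 58.2% and 37.4% of its UMIs. S100g, a calcium carrier, was at 8.27 and 472 CPM, with 79.8% of the latter in 1 cell, while Saa3, an acute-phase protein, was at 2.76 and 291 CPM in 23.6% of the cells of the fl/fl-labelled library. Tuft cell transcripts, bounded by the rule, were lower in the fl/fl-labelled library for 15 of 17 genes, where 4924 of all 11859 genes measured were lower. Their median was -1.37 against -1.82 in epithelium. Ccl21a, the Ccr7 ligand made by other mTECs, was at 578 and 254 CPM (-1.19; 0.13 in subgroups 1 and 2 alone), and at 4155 and 2608 CPM in epithelium.

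Aire was at 82.7 CPM (71.1 to 95.7) and 213 CPM (191 to 238) in the Ccr7 dendritic cells, a ratio of 1.36 (1.10 to 1.64), and at 158 and 320 CPM in epithelial cells. At least 1 UMI of Aire was found in 43.2% and 56.9% of the dendritic cells, and at 2000 UMIs a cell in 11.2% and 24.3%. The thinned shares were 6.56% and 25.4% in T-lineage cells and 16.6% and 30.4% in epithelial cells. In the fl/fl-labelled library the share of Aire-bearing dendritic cells was thus no higher than that of T-lineage cells, and no expression is read from that share. The level of Aire was 213 CPM against 149 CPM in T-lineage cells there, and 8 dendritic cells and 0 T-lineage cells had at least 10 UMIs, at median depths of 9151 and 3169 UMIs. The part of depth, free RNA and doublets in this was not tested. In the +/fl-labelled library the intervals of the 2 thinned shares, 6.76 to 17.1% and 1.82 to 15.9%, overlap. By subgroup Aire was at 30.2 and 83.0 CPM in subgroup 1, 58.7 and 100 CPM in subgroup 2 and 102 and 387 CPM in subgroup 3. Cells with at least 5 UMIs numbered 7 and 14, of which 5 and 9 were in subgroup 3.

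All 9 cells of the B-lineage-like subgroup 5 had a UMI of Aire, with 1, 1, 1, 2, 2, 4, 4, 5 and 43 UMIs. The cell with 43 UMIs also held 51 of the 53 UMIs of Csn2 in these 9 cells and 24 of the 33 of Ccl21a. Unthinned, a UMI of Aire was found in 43.2% and 56.9% of all dendritic cells and in 18.5% and 33.8% of the T-lineage cells of the 2 libraries. The median depth was 11244 UMIs in the 9 cells and 4313 and 3169 UMIs in the T-lineage cells. Thymic B cells are known to be able to express Aire, and the part of free RNA in these counts was not tested.

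Prdm16, a gene associated with cells that express Aire outside the epithelium, was at 3.22 and 5.29 CPM. Il7r, a cytokine receptor chain also expressed by mature dendritic cells, was at 80.4 and 97.8 CPM (0.28, -0.04 to 0.61).

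Several of the genes with the most extreme ratios between the libraries had most of their UMIs in 1 cell. In the fl/fl-labelled library 1 cell held 82.7% of the UMIs of S100a9, 93.3% of Camp and 99.2% of Ngp, all neutrophil granule or calprotectin genes, and 1 cell held 99.2% of the UMIs of the kallikrein Klk1b16. S100a9 was nonetheless found in 9.03% of the cells of that library and 0.617% of the other, and Fabp6, with 61.0% of its UMIs in 1 cell, in 11.1% and 0.617%. Gzmc, a granzyme, and Retnla, a resistin-like protein, among the lowest ratios, had 96.6% and 99.2% of their UMIs in the +/fl-labelled library in 1 cell. Among the 8 highest and the 8 lowest ratios, Xist, Ddx3y, Apol7c and Cald1 had under 20% of their UMIs in any 1 cell in both libraries. Cald1, an actin-binding protein of contractile cells, was at 60.2 and 12.6 CPM in 27.2% and 11.8% of the cells.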

How the data were processed

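The authors deposited UMI counts for every gene in every cell barcode, not normalised. Cell Ranger is named in the submitters' processing notes. Seurat is named there too. Neither is given a role. The file headers carry the software version 3.1.0. The genome build is not given in the sources used here. Each matrix has 31053 genes. Symbols listed more than once (Ccl19 and Ccl21a among the genes used) were read from their first row, and 4 genes of the lists were not in the matrices. Library totals were 85260592 UMIs in 7304 barcodes (+/fl) and 99871505 UMIs in 11095 barcodes (fl/fl).

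Levels (CPM) are the UMIs of a gene over all UMIs of the population's cells in a library. Ratios had 1 CPM added, and genes with under 10 UMIs in the dendritic cells of both libraries together got no ratio. Subgroups came from scanpy 1.11.5 (1000 variable genes, 20 components, 15 neighbours, Leiden resolution 0.6), with intervals from scipy 1.17.1 and tables from pandas 2.3.3. Scrublet marked 1 and 0 cells (0.0196% and 0%) by its own threshold, which was taken as not working. Doublets were therefore not removed, and the highest scores (0.8% per 1000 cells, 208 and 539 cells, of them 3 and 12 dendritic cells) were left out as an alternative. Interval code was tested on simulated data.

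The text names members of the gene lists. It also names the 8 highest and 8 lowest ratios (at least 50 CPM in either library and 50 UMIs over both), the 15 genes highest over all other cells (at least 100 CPM), and the 8 leading genes of a subgroup. The rule, the gene lists and the named genes were chosen with earlier results of these data known. Alternatives changed the rule, filter, depth, scaling, gene minimum and subgroups included.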

Additional observations from a re-analysis of the deposited data

Results flagged for a closer look

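Several mature dendritic cell genes differed between the libraries in opposite directions in the Ccr7 dendritic cells and in epithelial cells. They were lower in the fl/fl-labelled library in dendritic cells and higher in it in epithelial cells, and the difference was not tested. The log2 ratios were -0.81 and 2.42 for Ebi3, -0.62 and 1.16 for Fscn1, -1.44 and 0.74 for Il12b, -0.55 and 1.16 for Il4i1, -0.58 and 1.35 for Nudt17 and -0.72 and 1.40 for Serpinb6b, a serpin that inhibits proteases of granules. Il12b was at 1.805 and 3.669 CPM in epithelial cells, so its ratio there rests on low levels.

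Cells outside the filter also met the gene rule. In the +/fl-labelled library 30 of 2205 barcodes below the filter did (1.36%, where a count of 0 would allow up to 0.136%), and 29 of the 30 were over the mitochondrial limit. In the fl/fl-labelled library 11 of 2887 did (0.381%, where a count of 0 would allow up to 0.104%), all 11 over that limit.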

How the results depend on the processing

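Each genotype has 1 library, so no setting gives an error between animals. No paired analysis was possible because each group has 1 library. Settings that keep some subgroups only, or average over them, were chosen after seeing the data. Of the ratios of single genes 669 stayed within their counting interval, 218 moved beyond it and 10 turned. A change of sign was counted as turned only where the interval of the main ratio excluded 0. Other changes of sign, as that of Ccl5 from -0.005 to 0.23 with at least 4 rule genes, were not counted so. Of the shares, medians and percents of epithelial level 156 stayed and 37 moved.

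The share of cells meeting the rule (+/fl-labelled and fl/fl-labelled) was 1.88% and 0.902% with at least 2 UMIs of Ptprc, 2.65% and 1.41% with Epcam under 2 per 10000, and 2.10% and 1.02% in subgroups 1 and 2. In the fl/fl-labelled library it was 1.38% with at least 4 rule genes, 1.40% with fewer than 2 T cell genes and 1.44% in subgroups 1 to 3, and in the +/fl-labelled library 3.76% with a stricter cell filter. The chemokine list, with a median ratio of 0.63, gave 0.27 without high doublet scores, 1.07 with at least 4 rule genes, 0.26 with Epcam under 2, 1.19 in cells with a Ccr7 UMI, 0.38 by the mean over cells, 0.35 and 0.31 for genes with at least 1 and 50 UMIs, 0.20 in subgroups 1 and 2, and 1.02 in subgroups 1 to 3. It stayed positive in these. The mature dendritic list had a median of -0.50 with at least 2 UMIs of Ptprc, and the tissue-restricted antigens of 3.13 with the stricter filter. The percent of the epithelial level was 8.46% with at least 2 UMIs of Ptprc (+/fl-labelled), 11.9% with Epcam under 2 (fl/fl-labelled), and 4.75% and 4.68% in subgroups 1 and 2.

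Ratios counted as turned were those of Rsad2 without high doublet scores (-0.16), Cd83 with Epcam under 2 (0.094), C1qa in cells with a Ccr7 UMI (-1.69) and Ccl22 as a mean over subgroups 1 to 3 (0.032). In subgroups 1 and 2 those of Cd83 (0.015), Isg15 (-0.073), Ifit1 (-0.26), Rsad2 (-0.25), Ikzf2 (-0.29) and Ccl21a (0.13) turned. These settings hold fewer cells, and the cause was not tested.

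Depth sets the share of cells with a UMI. Aire was found in 5.56%, 19.5% and 43.2% (+/fl-labelled) and 12.5%, 42.4% and 56.9% (fl/fl-labelled) at 1000 UMIs, at 4000 UMIs and unthinned, and Ccr7 in 65.4%, 87.0% and 93.8%, and in 53.5%, 80.3% and 87.5%.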
